A study of Mus musculus with 81 samples.

Results

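The classical and accessory genes of the major histocompatibility complex (MHC) class II pathway were described in hearts of BXD mice. The members were the 10 listed genes H2-Ea, H2-Aa, H2-Ab1, H2-Eb1, Cd74, Ciita, H2-DMa, H2-DMb1, H2-Oa and H2-Ob, out of 22180 genes measured on the arrays. Each was represented by the probe set that the platform's gene table gives to it alone, taking the one with the highest mean. By this rule 9 of the 10 were measured. Cd74, the invariant chain, has only a probe set that the table shares with Mir5107, and it was not analysed here.

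BXD strains are recombinant inbred lines bred from the parents DBA/2J and C57BL/6J, so that each strain is fixed, at most places of the genome, for the allele of one or the other parent. Whole hearts came from males of 29 weeks after an overnight fast, fed either a high fat diet or chow. The 81 arrays comprised 39 high fat and 42 chow arrays, each hybridised with RNA pooled evenly from about 5 animals of 1 strain on 1 diet. Both diets were present for 39 strains (37 BXD strains, DBA/2J and C57BL/6J), and BXD60, BXD79 and BXD92a had chow alone. The treatment label gave the diet. The protocol text of the samples names chow alone, and what the high fat diet contained is not stated in the labels.

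MHC class II molecules are pairs of an alpha and a beta chain that display peptides to CD4 T cells. In the mouse H2-Aa pairs with H2-Ab1 and H2-Ea with H2-Eb1. Ciita is the master activator of these genes, the H2-DM molecule helps to load peptides and the H2-O molecule restrains H2-DM. In the heart such genes are known mainly from macrophages, dendritic cells and B cells rather than from cardiomyocytes. C57BL/6J carries the b haplotype of the MHC, known for a deletion at the promoter of H2-Ea, and DBA/2J carries the d haplotype, which expresses it. In the RefSeq annotation of the C57BL/6J genome (GRCm38.p6) H2-Ea is a transcribed pseudogene. Of the 9 measured genes 8 lie on chromosome 17, in the order H2-Oa, H2-DMa, H2-DMb1, H2-Ob, H2-Ab1, H2-Aa, H2-Eb1 and H2-Ea, while Ciita lies on chromosome 16.

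Promoters of class II genes are known to share upstream elements, called the X box and the Y box, that bind the RFX and NF-Y factors. RefSeq promoter windows around the gene start (GRCm38.p6) were at hand for 6 of the members, in 7 windows. The 5 stretches of 90 bases shown here, 5′ to 3′, hold the letters TGATTGG, a form of the Y box, and show the upstream sequence of genes whose levels are set against each other below. Capitals mark TGATTGG and, where it was found, TAGNAAC, the start of a form of the X box. These letters were chosen with the sequences in view, and for the X box replace a longer, rarer form searched before.
H2-Aa (chr17:34287846-34287935, minus strand): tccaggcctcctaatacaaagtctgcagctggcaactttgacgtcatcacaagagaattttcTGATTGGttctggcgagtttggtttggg
H2-Eb1 (chr17:34305744-34305833, plus strand): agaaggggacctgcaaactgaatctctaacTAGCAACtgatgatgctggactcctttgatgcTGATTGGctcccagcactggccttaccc
H2-DMb1 (chr17:34153066-34153155, plus strand): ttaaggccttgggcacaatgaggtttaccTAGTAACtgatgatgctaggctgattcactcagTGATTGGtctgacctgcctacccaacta
H2-Ob (chr17:34238784-34238873, plus strand): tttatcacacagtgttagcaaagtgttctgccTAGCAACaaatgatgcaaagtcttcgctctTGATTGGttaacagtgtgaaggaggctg
H2-Oa (chr17:34092272-34092361, plus strand): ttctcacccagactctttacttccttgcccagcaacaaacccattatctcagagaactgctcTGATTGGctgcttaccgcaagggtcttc

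Searched on either strand, TGATTGG was present in 7.80% of 32817 promoter windows and TAGNAAC in 11.4%. The forms do not overlap, and where both occurred, in H2-Eb1, H2-DMb1 and H2-Ob, 25, 26 and 23 bases lay between them. H2-Aa and H2-Oa held the Y box form alone, and neither of the 2 windows of H2-DMa held either form. These matches are letters in a window and do not show binding.

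Values are in rescaled expression units, a scale set so that the probe sets of any array average 8 with an SD of 2. Its log base is not known, and differences therefore stay in these units rather than as folds. The median gene lay at 8.18 units. As a floor for comparison, 1394 olfactory and vomeronasal receptor genes, most of which a heart is not known to use, had a median of 5.76 and a 95th percentile of 7.69 units. Across genes, r between any pair of arrays was at least 0.969 and at most 0.992. Heart markers were high, as the mean of 8 cardiomyocyte genes such as Myh6 and Tnnt2 lay between 14.70 and 15.17 units on every array.

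H2-Ea split the strains into a high and a low set. Its level ran from 6.60 to 12.99 units with a median of 7.03 on the high fat arrays, and from 6.23 to 13.04 with a median of 6.86 on the chow arrays. No array lay between 7.49 and 10.30 units, a gap of 2.80 units, while the next widest gap between neighbouring arrays was 0.415 units. The intraclass correlation, the share of the variance of single arrays that lies between strains rather than between a strain's pair of arrays, was 0.986, the highest of all 22180 genes, against a median of 0.155 (strain F test of limma, adjusted p = 5.91e-32). In all 39 strains with both diets the high fat and the chow array lay on the same side of the gap.

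The parents lay on opposite sides. H2-Ea was 11.41 units on high fat and 10.46 on chow in DBA/2J, against 6.97 on high fat and 6.76 on chow in C57BL/6J. The difference, DBA/2J minus C57BL/6J, was 4.07 ± 0.264 units (SE, 2 arrays per parent; adjusted p = 2.29e-15, limma). Cut at the midpoint of the parents, 8.90 units, 15 of 42 strains lay with DBA/2J and 27 with C57BL/6J. Among the 40 BXD strains these were 14 (35%) and 26. The strains with DBA/2J were BXD44, BXD50, BXD56, BXD62, BXD63, BXD68, BXD69, BXD70, BXD73, BXD79, BXD80, BXD87, BXD99 and BXD103. The sides are drawn from H2-Ea itself, so everything given by side is a description without a test.

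**Figure D1:**
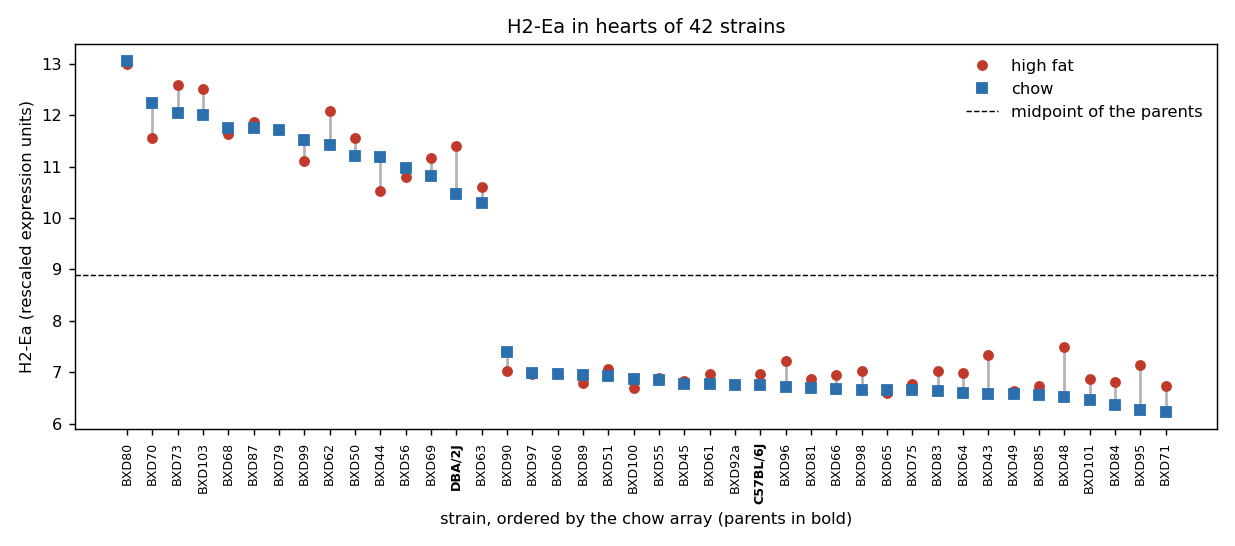
H2-Ea in rescaled expression units (vertical axis) in each of 42 strains, ordered by the chow array from high to low, with high fat arrays as circles, chow arrays as squares, a grey line joining the arrays of a strain and the parents' midpoint of 8.90 dashed. The 15 strains with DBA/2J lie at 10.30 units or higher and the 27 with C57BL/6J at 7.49 or lower.

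On the C57BL/6J side the signal of H2-Ea stayed low and narrow. Over 52 arrays it had a lowest value of 6.23, a median of 6.79 and a highest of 7.49 units, all below the 95th percentile of the receptor genes. On the DBA/2J side the gene spread more, from 10.30 (BXD63 on chow) over a median of 11.55 to 13.04 units (BXD80 on chow) in 29 arrays, with an SD of 0.720 against 0.254 units on the C57BL/6J side. Within a side neighbouring arrays lay at most 0.415 units apart, and the diets of a single strain differed by a median of 0.340 and at most 0.965 units, so neighbours in the order of strains cannot be ranked.

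Where H2-Ea was present it followed the other classical chains. Over the 29 arrays of the DBA/2J side Pearson's r of H2-Ea was 0.947 with H2-Ab1, 0.905 with H2-Aa and 0.873 with H2-Eb1, its own partner chain. For the means of the 15 strains r was 0.972, 0.965 and 0.961. With H2-DMa r was 0.848, with H2-DMb1 0.513 and with Ciita 0.496, and with H2-Oa and H2-Ob it was 0.275 and 0.213. Without the arrays of BXD80, which lay farthest from the median, r was 0.932, 0.915 and 0.827 for H2-Ab1, H2-Aa and H2-Eb1, 0.799 for H2-DMa, 0.341 for H2-DMb1, 0.176 for Ciita, 0.294 for H2-Oa and 0.0359 for H2-Ob. Within the diets r with H2-Eb1 was 0.941 on high fat and 0.960 on chow, both above its pooled value, and with H2-Aa 0.927 and 0.929. Over the 52 arrays of the C57BL/6J side r was -0.074 with H2-Ab1, -0.153 with H2-Aa and -0.315 with H2-Eb1. Within the diets these were -0.339, -0.367 and -0.358 on the 25 high fat arrays and 0.107, 0.0339 and -0.0361 on the 27 chow arrays. The points share strains (2 arrays for most) and the rescaling of each array, and these values carry no test.

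**Figure D2:**
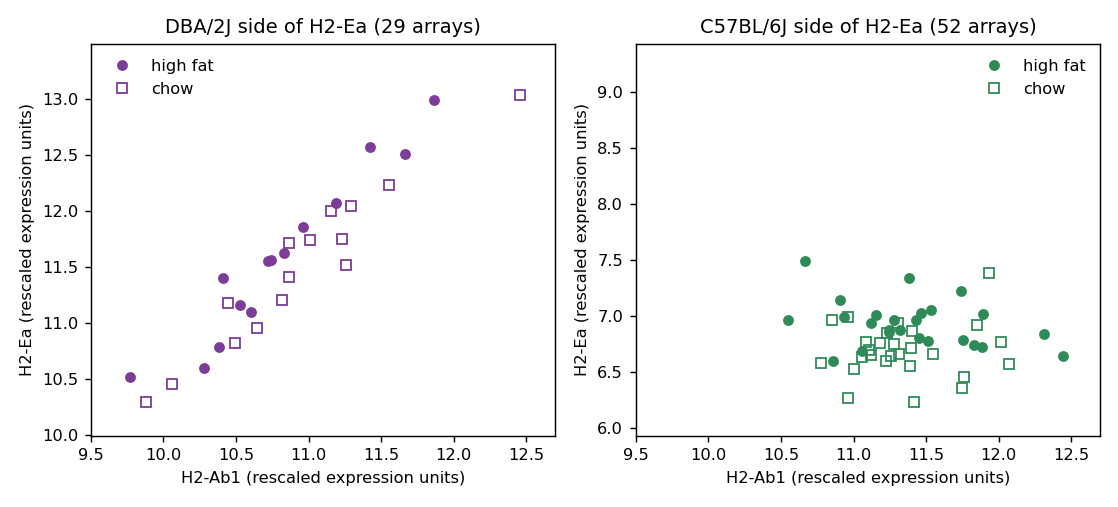
H2-Ea (vertical axis) against H2-Ab1 (horizontal axis), both in rescaled expression units, for the 29 arrays of the DBA/2J side (left) and the 52 arrays of the C57BL/6J side (right), with filled circles for high fat and open squares for chow. The vertical axes start at different levels and have the same span, and r is 0.947 on the left and -0.074 on the right.

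The second question was what remained between strains in the other members. Of the 9 measured members 5 passed the strain test, against 14.8% of all genes: H2-Ea, H2-Aa, H2-Ab1, H2-Eb1 and H2-DMa. H2-Eb1 had an intraclass correlation of 0.771 (adjusted p = 1.65e-08, strain F test of limma), H2-Ab1 of 0.75 (adjusted p = 4.91e-08), H2-Aa of 0.615 (adjusted p = 4.46e-05) and H2-DMa of 0.544 (adjusted p = 0.000738). These values lay at the 98.8th, 98.6th, 96.4th and 94.5th percentile of all genes. Ciita, at 0.343, missed the threshold (adjusted p = 0.0545), and without BXD80 its value was 0.174 (adjusted p = 0.253, limma). The value of H2-DMa without BXD80 was 0.399 (adjusted p = 0.0228), still past the threshold. The chains of H2-O and the beta chain of H2-DM did not pass, with 0.111 for H2-Oa, 0.152 for H2-Ob and 0.146 for H2-DMb1 (adjusted p = 0.375, 0.285 and 0.270).

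None of the other 8 members split as H2-Ea did. H2-Ab1 ran from 9.77 over a median of 10.83 to 12.46 units on the DBA/2J side, against 10.55, 11.31 and 12.44 units on the C57BL/6J side. Of the 29 DBA/2J side arrays 24 lay below the C57BL/6J side's median and 10 lay outside that side's range. H2-Aa had a median of 10.19 (range 9.01 to 11.47) on the DBA/2J side and 10.38 (9.61 to 11.53) on the C57BL/6J side. H2-Eb1 had 9.89 (8.79 to 10.97) on the DBA/2J side and 10.08 (9.36 to 11.01) on the C57BL/6J side. The ranges of these chains therefore overlapped over most of their length, with medians lower by 0.477, 0.191 and 0.191 units for H2-Ab1, H2-Aa and H2-Eb1 on the DBA/2J side.

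The accessory genes lay closer together. The medians of H2-DMa were 9.13 and 9.16 units on the DBA/2J and C57BL/6J sides, those of Ciita 8.90 and 8.88, and those of H2-Oa 7.82 and 7.87. H2-DMb1 had a median of 6.45 on the DBA/2J side and 6.29 on the C57BL/6J side, where 24 of 29 DBA/2J side arrays lay above that median. All 81 values of H2-DMb1, from 5.90 to 7.56 units, lay below the receptor genes' 95th percentile of 7.69, so its differences and correlations lie within the range of genes that a heart is not known to use. H2-Oa, from 7.36 to 8.39 units with a mean of 7.86, lay on both sides of that percentile. Its strain test and correlations are therefore those of a gene near the floor. H2-Ob, the beta chain of H2-O, had 8.10 on the DBA/2J side and 8.28 on the C57BL/6J side, where 20 of 29 lay below it. H2-DMb1 lies beside a close copy, H2-DMb2, and reading of either by the other's probes was not tested. How far probes designed on 1 genome read the other parent's allele was not tested for any member.

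**Figure D3:**
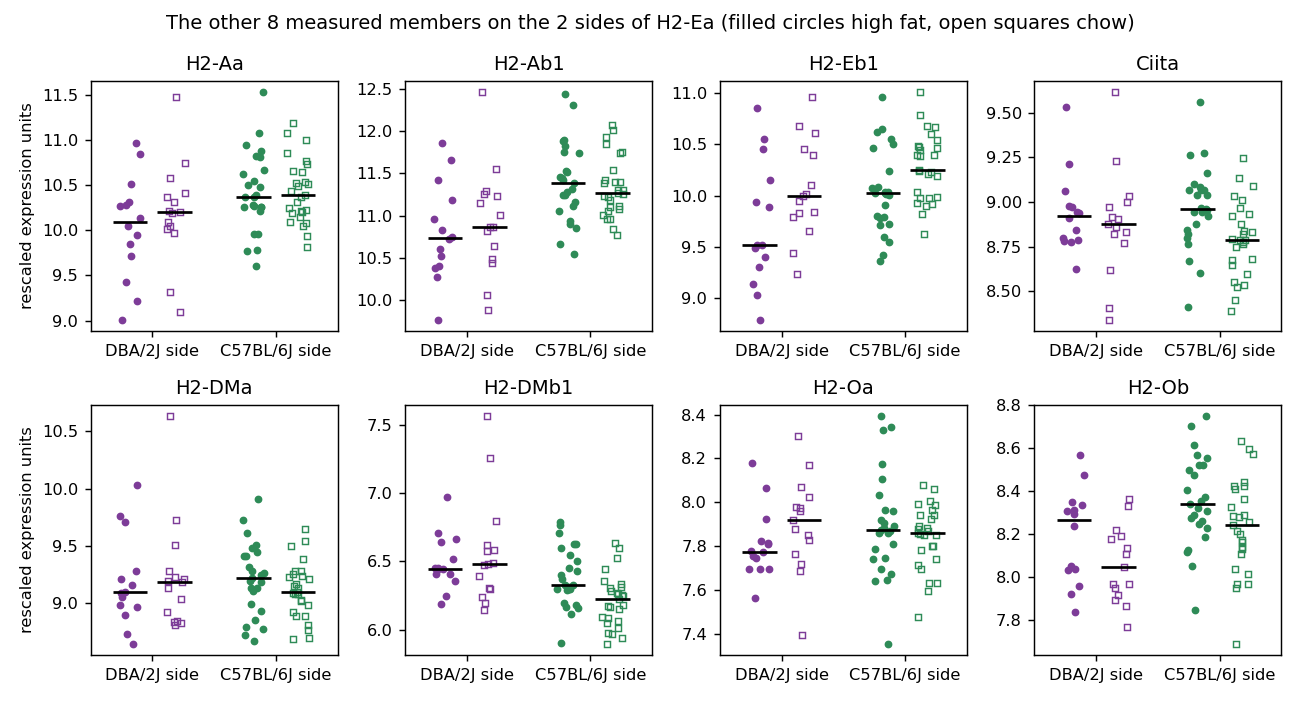
Levels of the other 8 measured members in rescaled expression units (vertical axes, each with its own range), with the DBA/2J side of H2-Ea in purple on the left and the C57BL/6J side in green on the right of each panel, filled circles for high fat, open squares for chow and bars for the median of each side and diet. All 8 overlap between the sides, and over both diets H2-Ab1 has medians of 10.83 and 11.31 units on the DBA/2J and C57BL/6J sides.

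Taking the median of each side and diet out of the values left most of the strain differences of H2-Eb1, H2-Ab1, H2-Aa and H2-DMa in place. The intraclass correlation then was 0.746 for H2-Eb1, 0.694 for H2-Ab1, 0.582 for H2-Aa and 0.557 for H2-DMa. It was 0.663 for H2-Ea itself, whose SD of strain means was 0.430 units in place of 2.34. For H2-DMb1 and H2-Ob it came to 0.0259 and 0.00892. For Ciita and H2-Oa it was 0.360 and 0.166, against 0.343 and 0.111 for the values as they are. H2-Aa, H2-Ab1 and H2-Eb1 moved as a block, with r of 0.926, 0.915 and 0.924 between the 3 pairs on high fat and 0.922, 0.910 and 0.911 on chow. The mean of these 3 chains over both diets ran from 9.48 units in BXD63 over a median of 10.54 to 11.53 in BXD49, and BXD49 lies on the C57BL/6J side. H2-DMa had a mean r of 0.721 with the 3 chains over all 81 arrays, and 0 genes outside the members had a higher one. Ciita had a mean r of 0.197, H2-Ob of 0.188 and H2-Oa of 0.130, each pooled over the diets. Within the diets r of Ciita with H2-Aa, H2-Ab1 and H2-Eb1 was 0.0159, 0.166 and 0.146 on high fat. It was 0.425, 0.404 and 0.322 on chow. BXD80 on chow had the highest Ciita and H2-Ab1 of all 81 arrays, and r without that array was not determined. The difference in r between the diets was not tested.

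**Figure D4:**
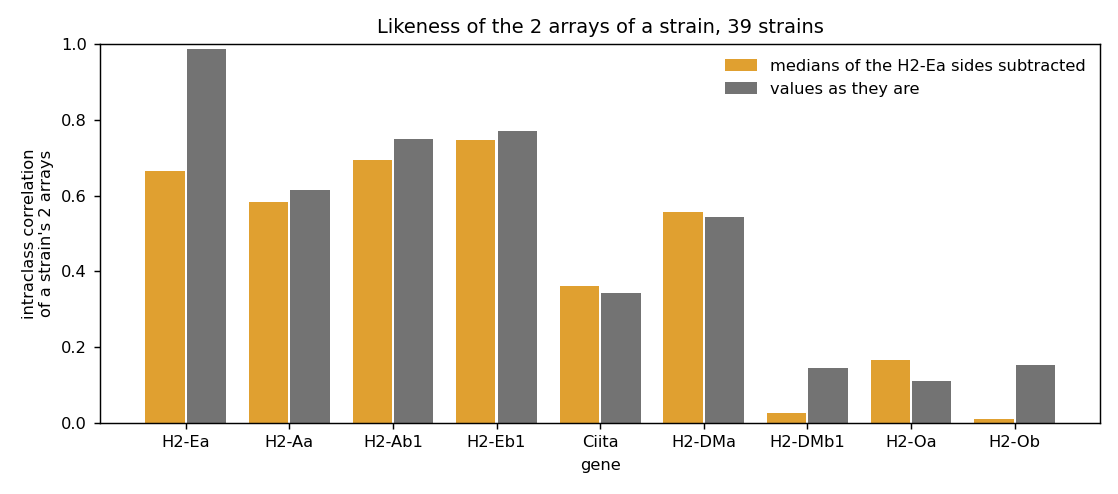
Intraclass correlation of the high fat and chow array of a strain (vertical axis) for the 9 measured members over 39 strains, in orange with the medians of the H2-Ea sides subtracted and in grey for the values as they are. H2-Ea has 0.663 and 0.986, H2-Eb1 0.746 and 0.771, and H2-Ob 0.00892 and 0.152.

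A mean over the members depended on H2-Ea. Over all 9 the strain means had an SD of 0.310 units and an intraclass correlation of 0.779, and without H2-Ea 0.230 units and 0.630. The strain with the lowest mean was BXD97 with H2-Ea and DBA/2J without it, and BXD80 was highest either way, at 10.04 units with H2-Ea and 9.67 without.

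Among the parents the classical chains other than H2-Ea were lower in DBA/2J. H2-Ab1 was 10.41 on high fat and 10.06 on chow in DBA/2J, against 11.43 on high fat and 11.28 on chow in C57BL/6J, a difference of -1.11 ± 0.261 units (SE; adjusted p = 0.00845, limma). H2-Aa was 9.85 and 9.32 in DBA/2J, against 10.66 and 10.44 in C57BL/6J, and its difference of -0.969 ± 0.288 missed the threshold (adjusted p = 0.0617). H2-Eb1 was 9.52 and 9.45 in DBA/2J, against 10.02 and 10.39 in C57BL/6J, with a difference of -0.719 ± 0.213 that also missed it (adjusted p = 0.0602). Both of these passed after quantile normalization of the arrays, with adjusted p of 0.0432 and 0.0371. The call for H2-Ab1 was lost with the 4 parent arrays alone (adjusted p = 0.0722).

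In total 2 of 9 members passed between the parents, H2-Ea higher and H2-Ab1 lower in DBA/2J, against 2.36% of all genes in either direction, 1.28% higher and 1.08% lower. The arrays of the parents did not overlap for 6 members, 1 higher and 5 lower in DBA/2J, against 38.7% of all genes, 21.1% higher and 17.6% lower. H2-DMa and H2-Ob were among the 5, at -0.499 and -0.365 units (adjusted p = 0.319 and 0.459). Ciita, H2-Oa and H2-DMb1 overlapped between the parents. The BXD arrays reached beyond the parents in either direction for all 9. Of 77 BXD arrays 24 lay outside the parents' range for H2-Ab1 (2 below, 22 above). The count was 33 for H2-Eb1 (8 below, 25 above) and 19 for H2-Aa (3 below, 16 above). It was 38 for H2-Ea, 32 for Ciita, 23 for H2-DMa, 30 for H2-Oa, 40 for H2-Ob and 35 for the dim H2-DMb1. The parents' range rests on far fewer arrays than the BXD values, and the share over all genes was not determined. Nothing particular to the members is therefore read from these counts.

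Between the diets, H2-Eb1 fell on high fat and H2-Ea, Ciita and H2-Ob rose, and the other 5 measured members did not pass. This count of 4 of 9 is close to the share of all genes called between the diets, 45.0% (23.8% higher and 21.2% lower), and the count therefore says nothing about the members as a group. The median difference over the members was 0.0405 units, against 0.00526 over all genes. The mean of the 9 members differed by 0.0194 ± 0.218 units (SD over 39 strains), and without H2-Ea by -0.00371 ± 0.219. The labels give no batch, and the part of one in the diet differences was not tested.

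H2-Eb1, the beta chain of the E molecule, ran from 8.79 over a median of 9.94 to 10.96 units on high fat, against 9.24, 10.22 and 11.01 units on chow. The ranges overlapped widely, but within strains the high fat array was the lower in 32 of 39. Its mean was 9.92 ± 0.505 on high fat and 10.21 ± 0.405 on chow (SD, n = 39 strains), a difference of -0.288 ± 0.0482 units (SE; adjusted p = 4.49e-06, limma). The fall was present on both sides of H2-Ea, with 12 of 14 strains lower on the DBA/2J side (mean -0.355 ± 0.343, SD) and 20 of 25 lower on the C57BL/6J side (mean -0.251 ± 0.291). Its neighbours did not pass in the same strains: H2-Ab1 differed by -0.0274 ± 0.0592 units (SE; adjusted p = 0.734) and H2-Aa by -0.0800 ± 0.0652 (adjusted p = 0.328). The differences between these genes' responses were not tested.

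H2-Ea differed by 0.204 ± 0.0598 units (SE; adjusted p = 0.00478, limma), higher on high fat in 28 of 39 strains. The rise was seen in 20 of 25 strains of the C57BL/6J side (mean 0.252 ± 0.321, SD), where the level lies below the 95th percentile of the receptor genes. On the DBA/2J side 8 of 14 strains were higher (mean 0.119 ± 0.492). Compared over all 81 arrays without the strain block, the difference was 0.199 units and was not called (adjusted p = 0.782).

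Ciita had 8.96 ± 0.227 units on high fat and 8.83 ± 0.258 on chow (SD, n = 39), a difference of 0.128 ± 0.0437 (SE; adjusted p = 0.0148, limma), higher in 26 of 39 strains. H2-Ob had 8.30 ± 0.226 on high fat and 8.18 ± 0.220 on chow, a difference of 0.117 ± 0.0454 (adjusted p = 0.0328), higher in 27 strains. For either gene the shift was smaller than the SD between strains. H2-DMa, H2-DMb1 and H2-Oa differed by 0.0405, 0.0776 and 0.00279 units (adjusted p = 0.545, 0.268 and 0.965).

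**Figure D5:**
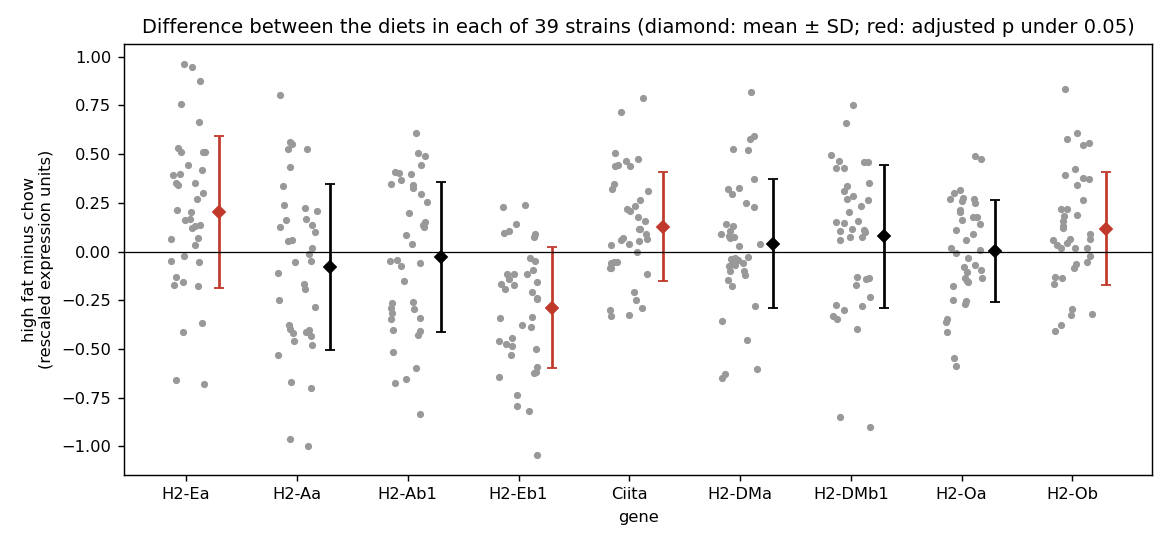
High fat minus chow in rescaled expression units (vertical axis) for each measured member, with a grey point for each of 39 strains and a diamond with its bar for the mean and SD over strains, red where the adjusted p is under 0.05. H2-Eb1 has a mean of -0.288 units with 32 strains below 0, and H2-Ea, Ciita and H2-Ob have means of 0.204, 0.128 and 0.117.

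Lists of genes around the class II pathway held calls in both directions between the diets, to be read against the 45.0% of all genes called (23.8% higher and 21.2% lower). Of 7 genes for the factors that bind class II promoters 3 rose and 2 fell. Nfyc, a subunit of the Y box factor NF-Y, rose by 0.140 units (adjusted p = 6.49e-05, limma), Creb1 by 0.133 and Rfxap, a subunit of the X box factor RFX, by 0.101, while Rfx5, another RFX subunit, fell by 0.127. Of 6 lysosomal enzymes that process antigen or the invariant chain 2 rose and 0 fell: Lgmn by 0.129 units (adjusted p = 9.65e-06) and Ctss, the cathepsin that trims the invariant chain, by 0.185 (adjusted p = 0.00054). Of 8 measured genes for MHC class I and its peptide supply 2 rose and 2 fell. Psmb8 and Psmb9, subunits of the immunoproteasome encoded between H2-DMb1 and H2-Ob, rose by 0.302 and 0.0969 units, while Tap1, the peptide transporter beside them, and Tapbp fell by 0.152 and 0.112. Of 8 interferon gamma response genes 1 fell, Cxcl10 by 0.149, and of 5 co-stimulation genes 1 fell, Cd86 by 0.130. The median differences of these lists were -0.000590, 0.0452, -0.0794, -0.0259 and -0.00267 units, against 0.00526 over all genes. The count for the promoter factors, 3 higher and 2 lower of 7, lies above the share of all genes, in a short list. Those of the other lists are near the share or below it, and nothing particular to any of these lists is read from them.

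Markers of the cells that carry class II molecules were set beside these values. The shares over all genes were 23.8% called higher and 21.2% called lower on high fat, and 14.8% called between strains. Of 11 macrophage markers 7 rose on high fat and 0 fell, with Ccr2 at 0.439, Itgam at 0.266, Cd68 at 0.234 and Fcgr1 at 0.184 units, and 9 of the 11 passed the strain test. Their mean level ran from 9.37 to 10.3 units on high fat and from 9.32 to 10.10 on chow, and its r with the mean of H2-Aa, H2-Ab1 and H2-Eb1 was 0.608 on 39 high fat and 0.387 on 42 chow arrays. Of 7 dendritic cell markers 2 fell, Batf3 by 0.161 and Cd209a by 0.118 units, with mean levels of 7.98 to 8.43 on high fat and 8.04 to 8.54 on chow and r of 0.224 and 0.398 on the high fat and chow arrays. Of 7 B cell markers 1 rose, Blk by 0.196, and 2 fell, Cd79a by 0.276 and Pax5 by 0.139 units. Their mean ran from 7.22 to 7.67 units on high fat and from 7.25 to 7.81 on chow, with r of 0.0699 and 0.00247. In this list Cd79a, Cd79b, Ms4a1, Cd22 and Fcer2a lay below the 95th percentile of the receptor genes, as did Itgax, Flt3, Xcr1 and Batf3 among dendritic cell markers and Ccr2 among macrophage markers.

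Of 6 T cell markers 1 rose and 4 fell, against 23.8% and 21.2% of all genes, with Cd2 lower by 0.224 and Cd4 by 0.175 units. Their mean ran from 7.17 to 7.87 units on high fat and from 7.19 to 8.14 on chow. Its r with the 3 class II chains was 0.393 on high fat and 0.303 on chow. Cd3g, Cd4, Cd8a and Cd2 lay below the receptor genes' 95th percentile. Of 6 endothelial markers 2 rose, Kdr by 0.128 and Pecam1 by 0.103 units, and Tek fell by 0.127, a count near the 45.0% of all genes called. Of 8 cardiomyocyte markers 5 fell, against 21.2% of all genes, where Myl3 fell by 0.148 and Myh6 fell by 0.0963 units. The r of the cardiomyocyte mean with the 3 class II chains was 0.00327 on high fat and 0.0691 on chow, and that of the endothelial mean -0.0206 and 0.0267. For the class I list r was 0.665 on high fat and 0.628 on chow, above that of the macrophage list on both diets. On high fat and chow it was 0.498 and 0.307 for the lysosomal list and 0.455 and 0.391 for the interferon gamma list. For the co-stimulation list it was 0.168 and 0.416, and for the promoter factors 0.176 and -0.0912. The part of any cell type in the class II values was not tested, and in such RNA fewer cells of a type and less RNA per cell cannot be told apart.

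The genes most like H2-Ea over the 81 arrays were found by the mean absolute distance between standardized values, where the median gene lay at 1.09. The closest were the olfactory receptor genes Olfr872 and Olfr873 on chromosome 9 (0.408 and 0.433), Glo1 on chromosome 17 (0.50), Olfr39 on chromosome 9 (0.515) and, in the opposite direction, Zfp945 on chromosome 17 (0.535). Glo1, glyoxalase, had a median of 11.62 units on the DBA/2J side and 11.05 on the C57BL/6J side, and Olfr872 had 8.35 and 6.14. No gene other than H2-Ea had sides that did not overlap. The genes outside the members with the highest mean r with H2-Aa, H2-Ab1 and H2-Eb1 were H2-Q4, a class I gene (0.649), the macrophage marker Adgre1 (0.615), Ly86 (0.580), Pim1 (0.577) and Mpeg1 (0.566). Of these, Ly86 rose on high fat by 0.146 units (adjusted p = 0.0432, limma), and the others did not pass. H2-Q4, Adgre1 and Pim1 lie on chromosome 17, as H2-Aa, H2-Ab1 and H2-Eb1 do, while Ly86 lies on chromosome 13 and Mpeg1 on 19. What part the shared chromosome has in these r was not tested.

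Among the nearest measured neighbours of H2-Ea on the chromosome, the members H2-Eb1, H2-Aa and H2-Ab1 were bright, with means of 10.07, 10.32 and 11.19 units. The other 5 were dim. In the RefSeq order H2-Eb2 is the nearest measured gene on the H2-Eb1 side, with a median of 6.63 units on the DBA/2J side and 6.70 on the C57BL/6J side. On the far side Btnl2 had 7.67 and 7.84 units, Btnl1 6.46 and 6.55, BC051142 6.33 and 6.47 and Btnl5-ps 7.63 and 7.68. By their means H2-Eb2, Btnl1, BC051142 and Btnl5-ps (6.67, 6.51, 6.43 and 7.68 units) lay below the receptor genes' 95th percentile and Btnl2, at 7.82, just above it, so a split in them may not be measurable here. None of the 5 passed the strain test (adjusted p between 0.107 and 0.922, limma). Btnl2 rose on high fat by 0.340 units (adjusted p = 2.72e-09).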

How the data were processed

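The authors deposited 1 log-like score for each of 41345 probe sets, from Affymetrix Expression Console per the submitters' processing notes, which name no version. On every array these scores average 8 with an SD of 2, so the rescaling hides any change common to most transcripts. Precision rests on how many arrays there are. Of the probe sets 23521 have 1 gene symbol in the platform's table and 1814 several, which were not named. The brightest of a gene's own probe sets stood for it (22180 genes), without a filter on level.

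Diet, strain and parent differences were fitted with limma 3.58.1 under R 4.3.3 (lmFit, eBayes) to the 78 arrays of 39 strains with strain and diet as terms, with Benjamini-Hochberg adjustment over all genes and a threshold of 0.05. Strain labels pair the diets. The strain test is limma's F test. On simulated data 90 of 100 genes given a diet shift of 0.2 units were called, 1993 of 2000 given strain variation, 99 of 100 given a parent shift of 1.5 units, and 12 of 21980 without a diet shift. The simulated noise was normal, independent and smaller than the spread within strains of most genes. The strain variation was set to 1.5 times the SD of that noise. The shares recovered may therefore be higher than real data allow. Alternatives covered scaling, variance model, array weights, probe sets, dim genes, strains and the strain block. The members, lists and tests were chosen with earlier results of these data known. Named genes are the members, up to 4 genes of each list with the smallest adjusted p between the diets, the 5 most like H2-Ea, the 5 most like H2-Aa, H2-Ab1 and H2-Eb1 (the rule also names Cd74, which was not measured) and the nearest measured neighbours of H2-Ea. Promoter sequences and gene order are from RefSeq (GRCm38.p6).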

Additional observations from a re-analysis of the deposited data

How the results depend on the processing

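The count of members called between the diets stayed at 4 under quantile normalization, centring on the median and a trended and robust prior. It was also 4 with array weights, with the mean over probe sets and without the parents. Among brighter genes alone, those above the median level, it was 4 of 7, and the strain count under that setting is also out of 7. The count between the diets was 3 with no replicate block (no strain term), where H2-Ea was lost. With the strain block it was also 4 without BXD80 and 4 without BXD44, strains set aside after the data were seen. Between strains the count ran from 5 to 6, with Ciita added under the trended prior, among brighter genes and without BXD44 (adjusted p = 0.0345, 0.0256 and 0.0445), while without BXD80 its intraclass correlation fell to 0.174 (adjusted p = 0.253), against 0.343. Between the parents it was 2, but 4 after quantile normalization and 4 of 7 among genes above the median level, with H2-Aa and H2-Eb1 added, 3 under the trended prior with H2-Eb1 added (adjusted p = 0.0480), and 1 with the parent arrays alone, where fewer arrays carry the fit. H2-Oa, at 0.00279 units between the diets and not called, turned to -0.000677 with array weights and to -0.0125 without the parents. The number of strains with DBA/2J at H2-Ea was 15 under each of the 4 alternatives, which could hardly move a strain across a gap of 2.80 units. The mean of the members between the diets lay between -0.00371 and 0.0276 units. Each member had 1 probe set of its own, so the mean over probe sets changed none of their values.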

Other observations

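The ends of the range were held by few arrays, chosen here after their values were seen. BXD80, a strain of the DBA/2J side, had on chow the highest values of all 81 arrays for H2-Ea, H2-Ab1, Ciita, H2-DMa and H2-DMb1, at 13.04, 12.46, 9.62, 10.63 and 7.56 units, the last of them below the receptor genes' 95th percentile. Among the 81 arrays its high fat array was 2nd for H2-Ea and H2-DMa and its high fat and chow arrays were 1st and 2nd for the mean of 8 class I genes, at 10.94 and 10.91 units. Its chow array also had the highest mean of the T cell, dendritic cell and interferon gamma lists, at 8.14, 8.54 and 10.15 units. The same array was highest for the lysosomal and co-stimulation lists, at 12.40 and 8.73 units. The macrophage mean of BXD80 was 7th on chow and 9th on high fat, and its B cell mean 16th and 69th. BXD49, of the C57BL/6J side, had the highest H2-Aa on high fat, at 11.53 units, on the array with the highest macrophage mean of 10.3. BXD44 on high fat was lowest for H2-Aa, H2-Ab1, H2-Eb1 and H2-DMa, at 9.01, 9.77, 8.79 and 8.65 units, and its macrophage mean of 9.37 was 78th of 81. The part of these cell type markers in the class II values was not tested.

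Some genes that serve antigen display outside the members also differed between strains. Lgmn, Tap1, Ctss and Psmb9 had intraclass correlations of 0.756, 0.715, 0.714 and 0.674, each past the strain F test of limma (adjusted p = 4.84e-06, 7.25e-07, 8.62e-07 and 2.01e-05). Against 14.8% of all genes, 6 of 8 of the class I list passed, 3 of 6 of the lysosomal list, 4 of 8 of the interferon gamma list, 1 of 7 of the factors of class II promoters and 0 of 5 of the co-stimulation list, of which 2, Cd80 and Cd86, had an unadjusted p under 0.05 (adjusted p = 0.151 and 0.163, limma).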
